A study of Mus musculus with 9 samples.

Results

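Methylation of 6 imprinted loci, *Nnat*, *Mcts2*, *Zrsr1*, *Grb10*, *Plagl1* and *Impact*, was followed in mouse embryonic stem cells (ESCs) that lack one of the de novo DNA methyltransferases. The loci are 6 of the 23886 genes annotated on the chromosomes that could be compared, and were selected on results already seen in these data, the WT methylation near their start and its behaviour in the knockouts. Within each interval, from 10 kb upstream to 10 kb downstream of the gene, the imprinted differentially methylated region (DMR) was chosen by its WT level, as the longest CpG-dense stretch that was 20 to 80% methylated in WT. The same rule found 2573 stretches on the shared chromosomes, of which the 6 DMRs are part. The WT levels below are therefore descriptions, and so are the differences from WT, which use the same WT reads; the knockout levels placed no DMR, though a CpG was used only where the knockout tables covered it too.

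Whole genome bisulfite sequencing reads each CpG as methylated or unmethylated. It was carried out on J1 ESCs (strain 129S4/SvJae) grown in serum with LIF on gelatin, in 3 genotypes: wild type (WT), *Dnmt3a*-/- (*Dnmt3a* KO) and *Dnmt3b*-/- (*Dnmt3b* KO). The 3 biological replicates of a genotype were merged into 1 table before deposition, so no value has a replicate check and no p-value is given; how many clones each knockout line stands for is not given in the sources used here. In the table of *Dnmt3a* KO, 12 consecutive CpGs over 401 bp of *Dnmt3a* had no reads, against a mean depth of 31.4 in WT and 16.8 in *Dnmt3b* KO. In the table of *Dnmt3b* KO, 30 consecutive CpGs over 1729 bp of *Dnmt3b* had no reads, against 31.5 in WT and 26.4 in *Dnmt3a* KO, so each gap lay in the gene that the label names. Of all CpGs, 13328402 had 3 or more reads in each of the tables, and their mean level was 82.4% in WT, against 50.3% in *Dnmt3a* KO and 75.5% in *Dnmt3b* KO.

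An imprinted gene is expressed from the allele of one parent. At its germline DMR the methylation set in the egg or sperm is kept on that parent's allele after fertilisation, chiefly by DNMT1 together with the zinc finger protein ZFP57, which binds a short motif when its CpG is methylated, while DNMT3A and DNMT3B add methylation to unmethylated DNA. The DMRs of all 6 genes are known to receive their methylation in the egg. A level near 50% in a pool of cells does not tell whether 1 allele of each cell or both alleles of some cells were methylated, and the reads were not assigned to parents.

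The loci differ in kind. *Nnat*, which encodes the small membrane proteolipid neuronatin, lies within the gene *Blcap*. *Mcts2*, a retrogene copy of the translation factor gene *Mcts1*, lies within *H13*, and *Zrsr1*, a retrogene of the U2AF splicing factor family, lies within *Commd1*. *Grb10* encodes an adaptor that dampens insulin receptor signalling, *Plagl1* a zinc finger transcription factor that restrains growth, and *Impact* an inhibitor of the stress kinase GCN2.

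The following 150 bp windows, on the plus strand of mm9, are the stretches of 3 DMRs outside UTRs that are richest in the core hexamer of the ZFP57 motif, TGCCGC. Capitals mark the hexamer. They are shown because the hexamer holds the CpG whose methylation ZFP57 is known to read. The windows of *Zrsr1* and *Grb10* chosen in the same way held 1 and 0 hexamers and are not shown. No window was drawn for *Impact*, whose whole DMR held 5. The windows shown are chr2:157386031-157386180 in *Nnat*, chr2:152512572-152512721 upstream of *Mcts2* and chr10:12810846-12810995 in *Plagl1*.
Nnat: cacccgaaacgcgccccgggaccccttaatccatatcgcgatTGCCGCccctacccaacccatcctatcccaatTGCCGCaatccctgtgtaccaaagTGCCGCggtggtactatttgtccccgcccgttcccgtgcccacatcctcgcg
Mcts2: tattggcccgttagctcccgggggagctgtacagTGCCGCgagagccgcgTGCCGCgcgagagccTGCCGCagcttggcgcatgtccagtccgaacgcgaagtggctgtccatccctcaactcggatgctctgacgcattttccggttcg
Plagl1: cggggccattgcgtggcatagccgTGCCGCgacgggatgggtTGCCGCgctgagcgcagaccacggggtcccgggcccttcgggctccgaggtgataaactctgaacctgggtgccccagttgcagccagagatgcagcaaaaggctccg

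The 3 windows took different courses in the knockouts. The 15 CpGs of the *Nnat* window were at 50.4% in WT, against 18.1% in *Dnmt3a* KO and 85.6% in *Dnmt3b* KO. The 17 measured CpGs of the *Mcts2* window were at 60.8%, 78.0% and 43.1%, the opposite order of the knockouts. The 14 CpGs of the *Plagl1* window were at 53.7%, 53.3% and 42.6%.

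All 6 DMRs were found, with 418 CpGs in all, in the mm9 build. The *Nnat* DMR (chr2:157385900-157386300) covered 401 bp and 39 CpGs, all inside the gene, with 160 bp of coding sequence, 25 bp of UTR, 187 bp of exons outside both and 29 bp of intron. The *Mcts2* DMR (chr2:152512291-152513115, 825 bp, 53 CpGs) and the *Zrsr1* DMR (chr11:22871975-22873400, 1426 bp, 95 CpGs) spanned the start of their retrogene, with 593 bp and 1240 bp upstream of it. The *Grb10* DMR (chr11:11925463-11926395, 933 bp, 101 CpGs) had its centre 12757 bp into the gene and lay over 446 bp of intron and 487 bp of UTR of its annotated transcripts. The *Plagl1* DMR (chr10:12810693-12811261, 569 bp, 46 CpGs) covered 138 bp of UTR and 431 bp of intron, and the *Impact* DMR (chr18:13131340-13132673, 1334 bp, 84 CpGs) lay wholly in intron. The *Grb10* DMR held 1 of 9 annotated transcript starts of its gene and the *Plagl1* DMR 1 of 12, while those of *Nnat* and *Impact* held 0.

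TGCCGC was searched on both strands, where it reads GCGGCA on the other. In whole DMRs it occurred 3 times in *Nnat*, 3 in *Mcts2*, 1 in *Zrsr1*, 4 in *Grb10*, 4 in *Plagl1* and 5 in *Impact*. Within the central 400 bp, 5 of the 6 DMRs (83.3%) held it, all but *Zrsr1*, against 12.2% of the 2573 stretches found by the same rule and 37.9% of 4428 CpG-dense stretches above 80% in WT. A match describes the letters only and is not a bound site. The hexamer was chosen for its known part in imprint maintenance, and the sets were not matched for CpG density. These shares are therefore no test. At the 3 hexamer CpGs of *Nnat* the mean level was 60.0% in WT, against 34.5% in *Dnmt3a* KO and 96.7% in *Dnmt3b* KO. At its other CpGs it was 45.4%, 17.8% and 87.9%. At the 3 hexamer CpGs of *Mcts2* it was 78.7%, 95.2% and 41.4%, against 54.0%, 49.9% and 40.3% at the others. These means of 3 CpGs rest on 3 to 30 reads per CpG in any genotype. The other loci had no common direction. The 4 hexamer CpGs of *Plagl1* were at 48.6%, 59.4% and 37.9%, against 45.9%, 47.0% and 50.95% at the others. The 4 of *Grb10* were at 62.9%, 58.9% and 49.0%, against 49.5%, 50.3% and 50.2%. The 5 of *Impact* were at 49.9%, 35.3% and 42.2%, against 48.0%, 35.6% and 33.4%. The 1 of *Zrsr1* was at 50%, 41.7% and 25%, against 50.1%, 43.4% and 46.98%.

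The *Nnat* DMR was less methylated than WT in *Dnmt3a* KO and more methylated in *Dnmt3b* KO. Its mean CpG level was 46.5% in WT (SD over 39 CpGs 16.7), 19.1% in *Dnmt3a* KO (SD 23.1) and 88.6% in *Dnmt3b* KO (SD 12.4), at mean depths of 20, 14.8 and 22.4 reads. The ranges of single CpGs overlapped between genotypes, but 38 of 39 were higher in *Dnmt3b* KO than in WT, 33 of 39 were lower in *Dnmt3a* KO than in WT, and all 39 were lower in *Dnmt3a* KO than in *Dnmt3b* KO. In *Dnmt3b* KO 32 CpGs were above 80%, against 1 in WT and 0 in *Dnmt3a* KO. In *Dnmt3a* KO 26 CpGs were below 20%, against 3 in WT and 0 in *Dnmt3b* KO.

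The differences at *Nnat* were -27.4 percentage points for *Dnmt3a* KO minus WT, 42.1 for *Dnmt3b* KO minus WT and -69.5 for *Dnmt3a* KO minus *Dnmt3b* KO. The first was -17.5 over the 24 CpGs with at least 10 reads and -6.96 over the 10 CpGs with enough reads on the plus strand. As shares of methylated reads the differences were -25.0, 43.1 and -68.1 points, with 95% Newcombe intervals of -29.7 to -20.03, 38.9 to 47.1 and -71.7 to -63.9. These intervals cover counting error only and are too narrow, because one read spans several CpGs. Taking instead the mean depth per CpG as the number of molecules, a wider interval, gave -51.5 to 4.51, 13.98 to 63.0 and -84.3 to -37.8 points. The wide interval of *Dnmt3a* KO minus WT included 0, as did those of every difference at the other 5 DMRs. As the loci were chosen with these values known, the intervals describe the depth and are no test, and the spread between replicates is not in them.

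The strands have separate reads, and both moved the same way at *Nnat*. Methylated reads made up 43.4% on the plus strand and 46.6% on the minus strand in WT, against 25.0% and 19.6% in *Dnmt3a* KO and 89.6% and 88.7% in *Dnmt3b* KO. Over the 18 pairs of 6 DMRs and 3 genotypes, the strands differed by a median of 6.43 points (range 0.747 to 30.2). The gap between strands of 1 table holds no variation between cultures or cell lines.

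**Figure D1:**
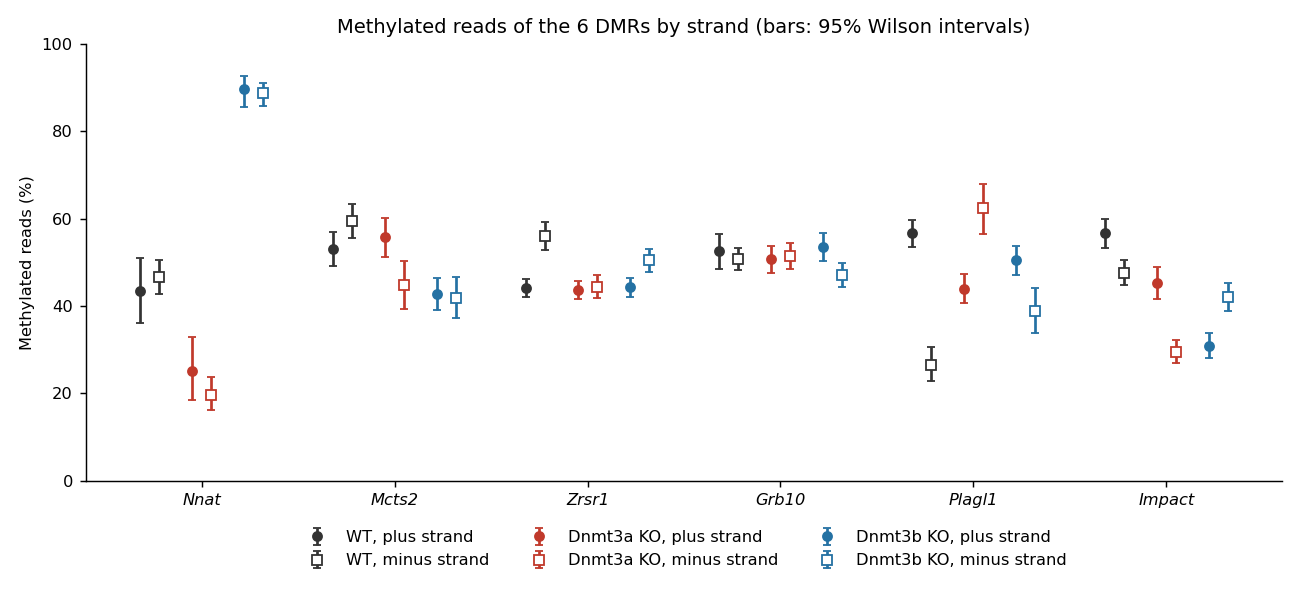
Share of methylated reads (%, vertical axis) in each of the 6 DMRs (horizontal axis) by strand, with WT in black, *Dnmt3a* KO in red and *Dnmt3b* KO in blue, filled circles for the plus and open squares for the minus strand, and 95% Wilson intervals as bars. Both strands of *Nnat* stood at 89.6% and 88.7% in *Dnmt3b* KO, while the strands of *Plagl1* lay as far apart as 56.6% and 26.5% in WT.

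The level in *Dnmt3a* KO was uneven along the *Nnat* DMR. In its 5′, middle and 3′ parts, of 13 CpGs each, the level in *Dnmt3a* KO was 35.1%, 21.0% and 1.21%. These means cover an uneven course, as 4 CpGs of the 5′ part were at 68.8 to 80% in *Dnmt3a* KO and 33.3 to 46.7% in WT. The last 12 CpGs were all at 0 in *Dnmt3a* KO, with 32.1 to 55.6% in WT. Their 109 reads in *Dnmt3a* KO are summed over the CpGs, so a read that spans several of them is counted several times. The means of the same parts were 50.3%, 44.4% and 44.9% in WT, whose single CpGs ran from 9.09 to 100%, and 89.5%, 88.0% and 88.3% in *Dnmt3b* KO. The 3′ part rested on a mean of 9.85 reads per CpG in *Dnmt3a* KO, against 27.2 in WT.

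The gain in *Dnmt3b* KO extended beyond the *Nnat* DMR. At 0 to 500 bp from its edges the level was 74.3% in WT, against 50.3% in *Dnmt3a* KO and 90.2% in *Dnmt3b* KO. At 500 to 1000 bp it was 78.3%, 33.4% and 90.1%, and at 1000 to 2000 bp 79.2%, 44.9% and 92.3%. At 2000 to 5000 bp WT (92.3%) was no longer below *Dnmt3b* KO (89.1%). With the region set by CpG density alone, with no methylation value used, the *Nnat* stretch was 1081 bp long with 75 CpGs and stood at 64.2% in WT, against 33.7% in *Dnmt3a* KO and 90.7% in *Dnmt3b* KO.

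**Figure D2:**
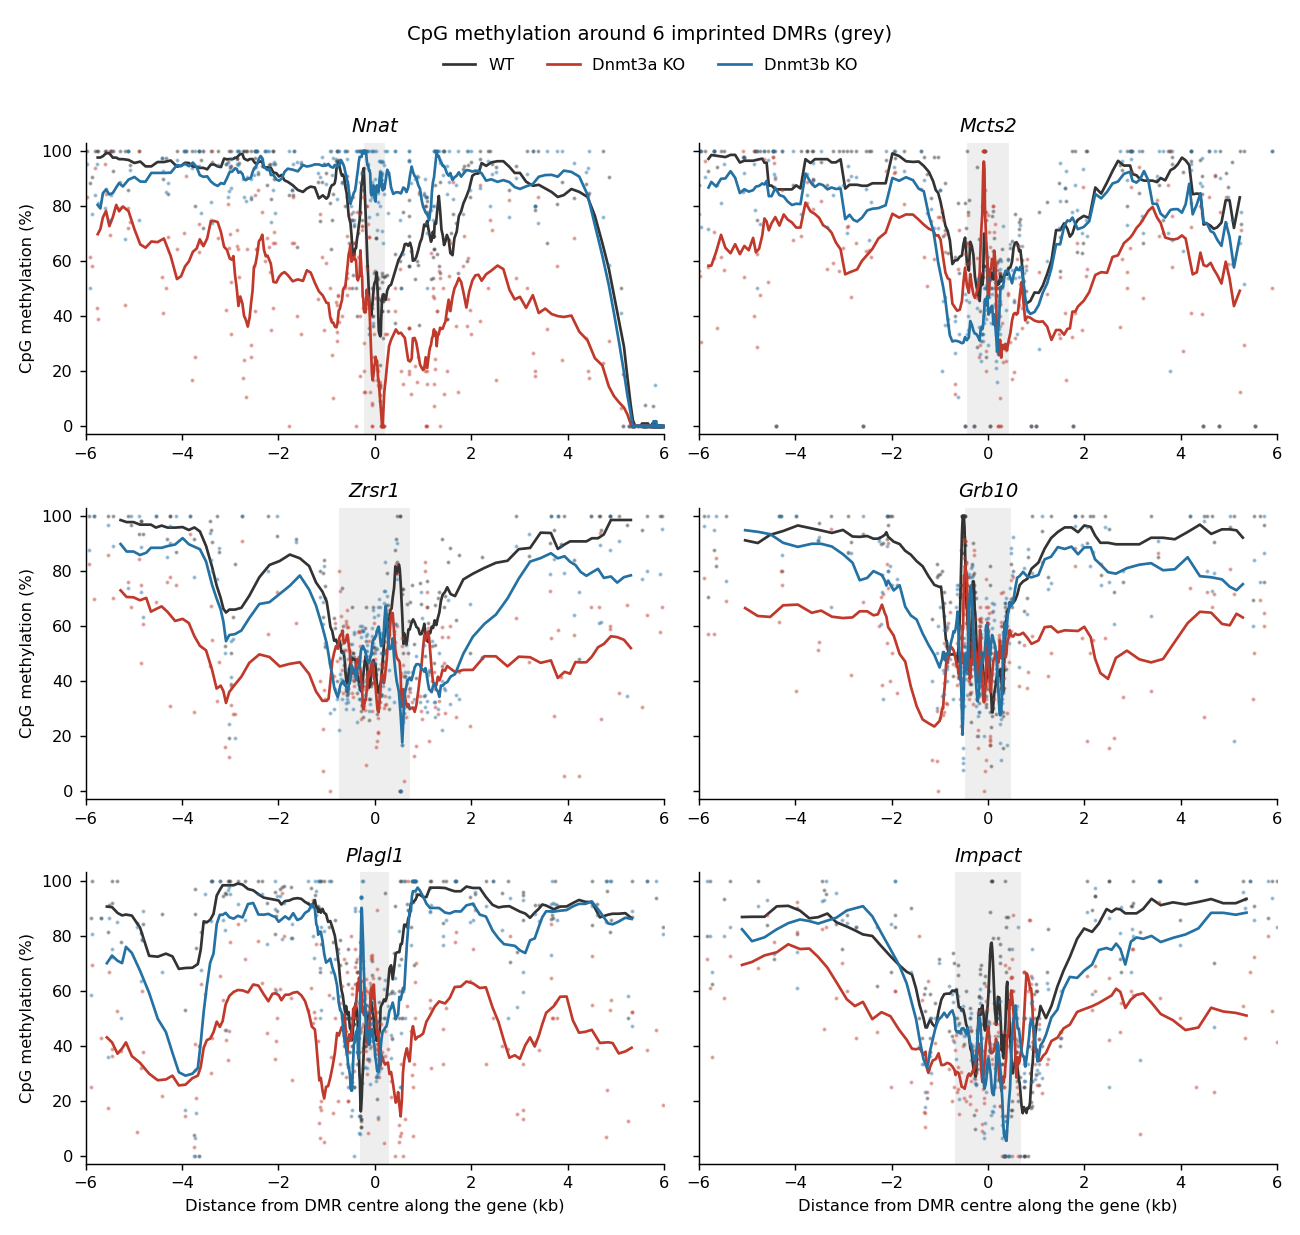
Methylation of single CpGs (%, vertical axis, points) against distance from the DMR centre along the gene (kb, horizontal axis) at the 6 loci, with lines for running means over 9 CpGs, WT in black, *Dnmt3a* KO in red, *Dnmt3b* KO in blue and the DMR in grey. At *Nnat* the *Dnmt3b* KO line crosses the DMR near its 88.6% mean, while the DMR means of the other 5 loci lie between 34.0% and 55.4% in every genotype.

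The *Mcts2* DMR was lower in *Dnmt3b* KO, while its change in *Dnmt3a* KO varied with the CpGs used. Its mean level was 55.4% in WT (SD over 53 CpGs 19.5), 52.5% in *Dnmt3a* KO (SD 30.5) and 40.4% in *Dnmt3b* KO (SD 14.1), differences of -2.89 and -15.0 points from WT. The first was -10.4 with windows of 5 CpGs and -8.96 on the minus strand, but 0.204 for the inner CpGs and 1.98 on the plus strand. The lower level in *Dnmt3b* KO was seen in the read shares of both strands (-10.4 and -17.6 points) and at 39 of 53 CpGs. The mean over CpGs was -7.95 on the minus strand. As a share of all methylated reads the difference was -13.9 points, with an interval of -17.9 to -9.88. The wide interval of the mean over CpGs was -40.4 to 13.6. The level in *Dnmt3a* KO differed along the DMR, with 72.1%, 56.7% and 27.3% in its 5′, middle and 3′ parts, against 60.3%, 52.9% and 52.8% in WT and 37.2%, 41.6% and 42.5% in *Dnmt3b* KO. In *Dnmt3a* KO 8 CpGs were above 80% and 7 below 20%, at a mean depth of 14.7 reads, the lowest of the 18 values. Among the 7, the CpGs at -288 and 48 bp from the DMR centre were at 0 in all 3 genotypes. Whether J1 DNA holds a CpG at these sites was not examined. The strands changed in opposite directions in *Dnmt3a* KO (2.61 and -14.7 points). *Mcts2* and *Nnat* lie 0.962 Mb and 3.87 Mb from *Dnmt3b* on the same chromosome. Over the 19 stretches within 5 Mb of *Dnmt3b*, the median change in *Dnmt3b* KO was -18.8 points, and the highest without *Nnat* was -2.17.

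The *Zrsr1* DMR, covered at 31.8 to 37.6 reads per CpG, was at 50.1% in WT (SD over 95 CpGs 16.8), 43.4% in *Dnmt3a* KO (SD 15.5) and 46.8% in *Dnmt3b* KO (SD 16.6). As means over CpGs the differences from WT were -6.65 and -3.31 points, with wide intervals of -28.5 to 16.1 and -25.9 to 19.7. As shares of methylated reads they were -3.87 and -1.06 points, with intervals of -6.28 to -1.46 and -3.53 to 1.41. The mean for *Dnmt3a* KO minus WT ran from -14.3 on the minus strand to -1.15 on the plus strand. It was -1.29 for windows of 5 CpGs and -1.76 for WT limits of 30 to 70%. The mean for *Dnmt3b* KO minus WT turned to 9.26 for the inner CpGs, 4.14 for windows of 5 CpGs and 4.02 for limits of 30 to 70%. Divided into 3 parts along the gene, its first and middle parts held 43.8% and 43.1% in WT, against 48.3% and 38.2% in *Dnmt3a* KO and 43.6% and 51.3% in *Dnmt3b* KO. The last part, which reaches into the retrogene, was lower in both knockouts, at 63.8% in WT, against 43.8% in *Dnmt3a* KO and 45.3% in *Dnmt3b* KO.

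The *Grb10* DMR, with the most CpGs, hardly differed in mean level between genotypes, but a larger region did. It stood at 50.1% in WT (SD over 101 CpGs 16.98), 50.6% in *Dnmt3a* KO (SD 18.1) and 50.2% in *Dnmt3b* KO (SD 15.3). The differences from WT were 0.55 and 0.14 points. As shares of methylated reads they were -0.139 and -1.60 points, with intervals of -3.13 to 2.85 and -4.53 to 1.35. The wide intervals of the means over CpGs were -27.2 to 28.2 and -27.2 to 27.4. A second stretch of 28 CpGs beside it was at 57.0%, 43.4% and 51.4%. With the region set by CpG density alone, which joins both, the levels were 57.7%, 51.4% and 48.4%, or -6.28 and -9.23 points from WT. Of the 9 annotated *Grb10* transcript starts, 1 lies in the DMR. The outermost start lies outside it. The DNA within 500 bp of the outermost start was at 80.6% in WT, against 29.0% in *Dnmt3a* KO and 62.6% in *Dnmt3b* KO over 19 CpGs.

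The *Plagl1* DMR also kept its mean, with 46.1% in WT (SD over 46 CpGs 15.7), 48.1% in *Dnmt3a* KO (SD 17.4) and 49.8% in *Dnmt3b* KO (SD 20.3), or 1.99 and 3.68 points above WT. As shares of methylated reads the differences were 1.33 and 0.35 points, with intervals of -2.52 to 5.18 and -3.44 to 4.14. The wide intervals of the means over CpGs were -22.6 to 26.4 and -20.7 to 27.6. Its strands disagreed more than those of any other DMR. Methylated reads made up 56.6% on the plus and 26.5% on the minus strand in WT, against 44.0% and 62.4% in *Dnmt3a* KO and 50.5% and 38.9% in *Dnmt3b* KO. Each knockout was below WT on the plus strand and above it on the minus strand, so the sign of the change at *Plagl1* depended on the strand. Over 11 alternatives, *Dnmt3a* KO minus WT was below 0 in 3 and *Dnmt3b* KO minus WT in 6. The latter was -6.12 for the inner CpGs and -5.24 for WT limits of 30 to 70%. Along the DMR, the first part of 16 CpGs was at 37.2% in WT and 67.2% in *Dnmt3b* KO, while the middle part was at 53.2% and 41.9% and the last at 48.5% and 39.2%. A second stretch of 33 CpGs upstream was at 47.5% in WT, against 52.2% in *Dnmt3a* KO and 39.3% in *Dnmt3b* KO.

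The *Impact* DMR was lower in both knockouts, by an amount that depended on where its edges were set. Its mean level was 48.1% in WT (SD over 84 CpGs 23.9), 35.5% in *Dnmt3a* KO (SD 17.8) and 34.0% in *Dnmt3b* KO (SD 18.9), differences of -12.6 and -14.2 points. With the region set by CpG density alone they were -5.68 and -9.31. Within 500 bp of the DMR the level was 37.7% in WT and higher in both knockouts, 46.8% and 43.6%, and in the last part of the DMR *Dnmt3a* KO (37.3%) was close to WT (40.1%). By shares of methylated reads both strands were lower in each knockout, with -11.4 and -18.1 points in *Dnmt3a* KO and -25.8 and -5.58 points in *Dnmt3b* KO. Means over CpGs covered on 1 strand were closer to WT, at -2.37 on the plus strand in *Dnmt3a* KO and -0.299 on the minus strand in *Dnmt3b* KO. As shares of methylated reads over both strands the differences from WT were -15.9 and -15.2 points, with intervals of -18.99 to -12.8 and -18.2 to -12.02. The wide intervals of the means over CpGs were -37.7 to 15.1 and -39.1 to 13.6. The knockouts differed from each other by 1.58 points, on a wide interval of -24.8 to 27.6.

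**Figure D3:**
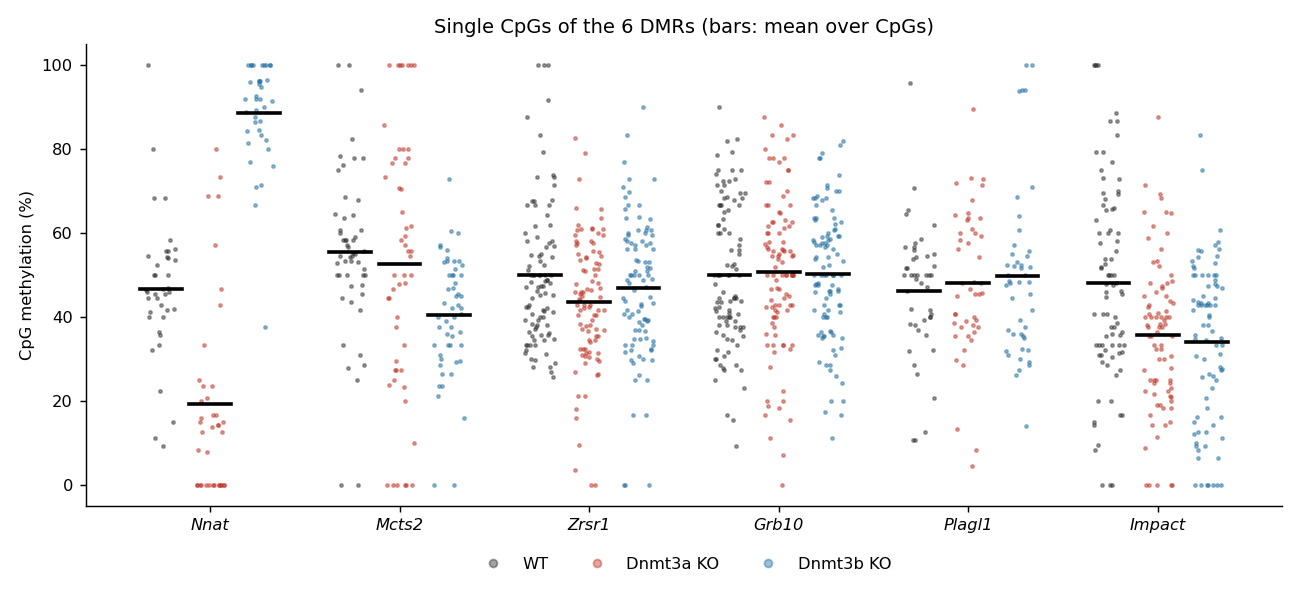
Methylation of every CpG (%, vertical axis, points) in the 6 DMRs (horizontal axis) in WT (black), *Dnmt3a* KO (red) and *Dnmt3b* KO (blue), with a bar at the mean over CpGs. The points of *Nnat* overlap in range but centre on 46.5%, 19.1% and 88.6%, while those of *Grb10* centre on 50.1%, 50.6% and 50.2%.

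A CpG was called different where the 95% credible interval of the difference of its levels lay beyond 0.2. Of the 418 DMR CpGs, 13 were called lower in *Dnmt3a* KO than in WT (3.11%) and 0 higher, where 25.7% and 0.00671% of all CpGs tested were; Fisher's exact test with Benjamini-Hochberg adjustment called 59 lower (14.1%) and 10 higher (2.39%), where it called 48.9% and 0.0767% of all CpGs. Of the 13, 7 were in *Impact*, 3 in *Zrsr1* and 1 each in *Nnat*, *Grb10* and *Plagl1*. In *Dnmt3b* KO 15 were called lower (3.59%) and 18 higher (4.31%), where 2.15% and 0.0681% of all CpGs were. Of the 18, 13 were in *Nnat* and 5 in *Plagl1*, and of the 15 lower, 11 were in *Impact*, 3 in *Zrsr1* and 1 in *Mcts2*. With at least 10 reads, 9 of 330 were called lower in *Dnmt3b* KO (2.73%), where 2.34% of all such CpGs were. Nothing is read from these counts about WT, whose levels chose the DMRs. In WT all CpGs tested averaged 82.4%, while the 6 DMRs had a median of 49.1%, which leaves less room for a fall. The shares called lower than WT are therefore not like for like. Between the knockouts, 37 CpGs were called lower in *Dnmt3a* KO and 5 higher, where 16.9% and 0.056% of all CpGs were, and 31 of the 37 were in *Nnat*; without *Nnat* the counts were 6 and 5 of 379.

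The rest of the gene intervals, called flanks here, moved differently from most of the DMRs in *Dnmt3a* KO. Outside the DMR, within 10 kb of the genes, the median level of the 6 loci was 76.8% in WT, against 46.3% in *Dnmt3a* KO and 67.0% in *Dnmt3b* KO. Every flank fell in *Dnmt3a* KO, by 26.1 to 36.1 points, where the DMRs changed by -27.4 to 1.99 points. In *Dnmt3b* KO the flanks changed by -11.9 to 0.37 points. The median share of the WT level kept in *Dnmt3a* KO was 59.3% in the flanks and 90.8% in the DMRs. It was 82.2% in the 4428 CpG-dense stretches above 80% in WT and 50.2% in the 2573 partly methylated ones. The mean of all CpGs tested went from 82.4% to 50.3%, so the fall was not particular to the flanks. The flanks were not matched to the DMRs in CpG density.

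By locus, the DMR kept 101% of its WT level in *Dnmt3a* KO at *Grb10* and 104% at *Plagl1*, where the flanks kept 60.2% and 58.4%. *Mcts2* kept 94.8% against 60.4%, and *Zrsr1* 86.7% against 53.6%. The gap was small at *Impact*, 73.8% against 67.8%, and *Nnat* had the opposite order, 41.1% in the DMR against 56.8% in the flank. The flank means include sparsely methylated DNA farther out, so the order of DMR and flank depended on the distance. In *Dnmt3a* KO the *Mcts2* DMR (52.5%) was above its whole flank by 6.63 points and above the DNA within 500 bp (44.4%). The DNA at 500 to 5000 bp from it was at 53.5 to 65.6% and that at 5000 to 10000 bp at 35.2%. In the same knockout the *Zrsr1* DMR (43.4%) was above its flank by 10.6 points and above the DNA within 500 bp (41.8%). The DNA at 500 to 5000 bp from it was at 43.4 to 53.3% and that at 5000 to 10000 bp at 19.01%. The *Nnat* DMR in *Dnmt3b* KO (88.6%) was above its flank by 24.4 points, but the DNA within 5000 bp was at 89.1 to 92.3% and that at 5000 to 10000 bp at 40.1%.

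**Figure D4:**
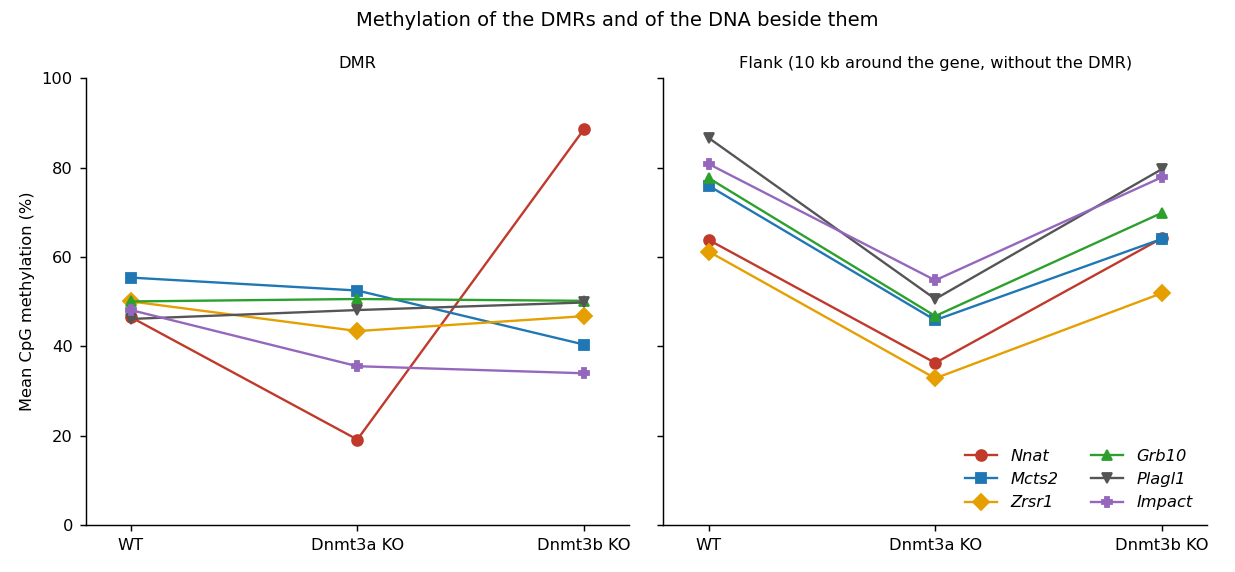
Mean CpG methylation (%, vertical axis) in WT, *Dnmt3a* KO and *Dnmt3b* KO (horizontal axis) for the 6 DMRs (left) and for the DNA within 10 kb of each gene outside its DMR (right), 1 line per locus. All 6 flanks drop in *Dnmt3a* KO by 26.1 to 36.1 points, and only the *Nnat* DMR rises in *Dnmt3b* KO by more than 20 points.

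Promoters of the host and neighbour genes were examined over the same reads. Of 10 promoters, each 500 bp on both sides of the outermost annotated start site, 7 were below 10% in WT. Among them were those of the host genes *Commd1* (4.89%) and *H13* (1.11%). These were at 0.383% and 0.54% in *Dnmt3a* KO and at 2.29% and 0.384% in *Dnmt3b* KO. The promoter of *Blcap*, host of *Nnat*, was at 45.0% in WT, against 12.3% in *Dnmt3a* KO and 22.7% in *Dnmt3b* KO, on 4 CpGs, so the gain in *Dnmt3b* KO was not seen there. The methylated promoters of *Ddc*, beside *Grb10*, and *Hrh4*, beside *Impact*, went from 92.8% and 80.1% in WT to 66.6% and 37.3% in *Dnmt3a* KO and 90.03% and 76.3% in *Dnmt3b* KO.

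Among the 2573 stretches found by the same rule, the median level was 50.3% in WT, against 24.9% in *Dnmt3a* KO and 30.5% in *Dnmt3b* KO. A fall of more than 20 points in *Dnmt3a* KO was seen in 68.1% of them, and in 1 of the 6 DMRs, *Nnat*. A fall of more than 20 points in *Dnmt3b* KO was seen in 47.3%, and in 0 of the 6. A rise of more than 20 points in *Dnmt3b* KO was seen in 0.0389%, which is 1 stretch, *Nnat*; the next highest rise was 15.1 points, and 55 stretches were above 0. Ordered from the highest change in *Dnmt3a* KO, *Plagl1* ranked 10, *Grb10* 16, *Mcts2* 31, *Zrsr1* 78, *Impact* 271 and *Nnat* 1403. In *Dnmt3b* KO *Nnat* ranked 1, *Plagl1* 30, *Grb10* 54, *Zrsr1* 100, *Impact* 650 and *Mcts2* 738. The loci were selected with their behaviour in the knockouts known, so these shares and ranks are descriptions and no test. The stretches were also shorter, with medians of 29 CpGs and 495 bp against 68 CpGs and 879 bp for the 6 DMRs.

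**Figure D5:**
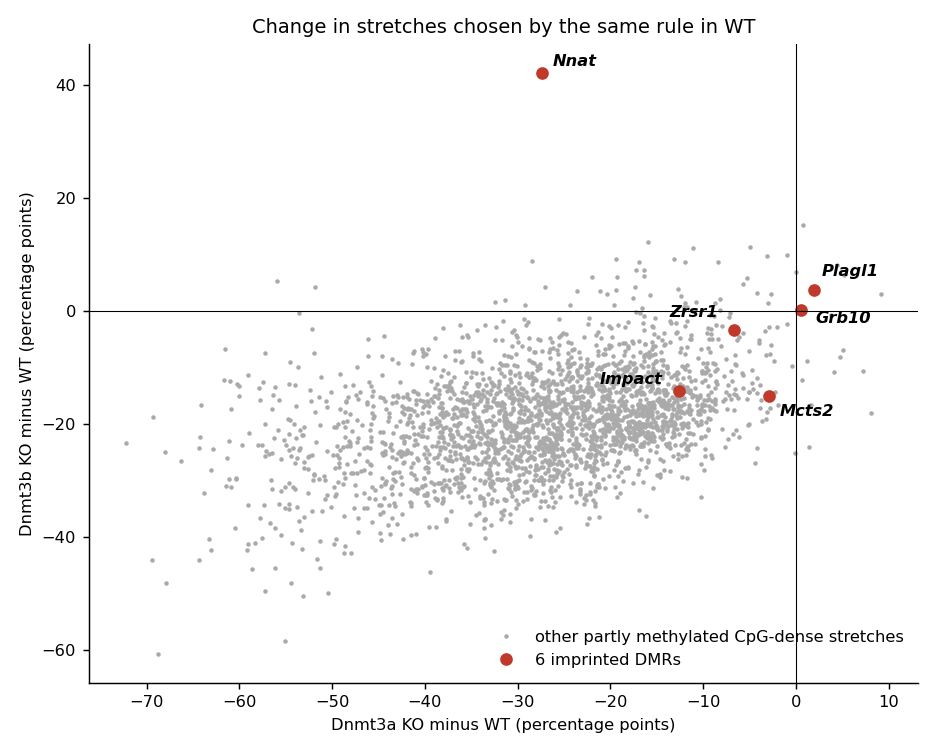
Change from WT in *Dnmt3a* KO (percentage points, horizontal axis) and in *Dnmt3b* KO (percentage points, vertical axis) for the 2573 partly methylated CpG-dense stretches, with the 6 DMRs in red and the others in grey; both axes share the WT reads. *Nnat* stands alone at -27.4 and 42.1 points, and the other 5 DMRs lie between -12.6 and 1.99 on the horizontal axis, where the medians of all stretches on both axes are -26.2 and -19.5.

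The limits of the rule set some DMR edges. At *Nnat* the first window of 11 CpGs inside the DMR was at 76.6% in WT and the window before it at 81.9%. At *Plagl1* the values just inside and outside the 5′ edge were 20.1% and 19.995%. At one edge of *Grb10* they were 79.9% and 82.8%, and at the 3′ edge of *Impact* 21.5% and 18.1%. The other edges ended where CpGs thinned out, as at *Mcts2*, where the windows just outside stood at 59.8% and 58.0%.

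For comparison, a list of 9 other imprinted genes was examined by the same rule. Of these, 8 were in the annotation and 6 had a stretch within 10 kb, which came to 4 different stretches, since *Gnas* and *Nespas* share one and *Igf2r* and *Airn* another. All 4 were below WT in both knockouts, with a median of -15.8 points (-22.5 to -0.45) in *Dnmt3a* KO and -8.67 points (-9.76 to -4.08) in *Dnmt3b* KO. The 6 DMRs had medians of -4.77 (-27.4 to 1.99) and -1.58 (-15.0 to 42.1) points. The median for *Dnmt3b* KO was 0.795 with at least 10 reads and -6.27 with regions set by CpG density alone. The stretch of *Igf2r* and *Airn* was at 46.6% in WT, against 46.2% in *Dnmt3a* KO and 36.9% in *Dnmt3b* KO, and that of *Gpr1*, the lowest in *Dnmt3a* KO, at 59.0%, 36.4% and 50.4%. None of the 4 rose in *Dnmt3b* KO as *Nnat* did.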

How the data were processed

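The authors aligned bisulfite reads of 9 libraries to mm9 with BSMAP, trimmed biased read ends with BSeQC and called CpGs with mCall of MOABS, merging the 3 libraries of each genotype. The deposited tables give, per CpG, the methylation fraction (ratio) and the counts of all and of methylated reads, in total and per strand. The WT table held chromosomes 1 to 3, chromosome 4 up to position 140865857 and chromosomes 10 to 19; other chromosomes were not analysed here, and 1 incomplete row was left out. The members and lists were chosen with earlier results of these data known. All 6 members, the fixed host, neighbour and other imprinted genes, and *Dnmt3a* and *Dnmt3b* are named.

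A CpG was kept where all 3 tables gave it 3 or more reads (3416 in the 6 intervals, 3519 with at least 1 read). A CpG joined a stretch where the 11 CpGs centred on it spanned at most 330 bp and averaged 20 to 80% in WT; stretches had at least 20 CpGs and gaps of at most 200 bp. Levels are means over CpGs. Intervals (95%, Wilson or Newcombe) cover counting error only. Calls used Beta posteriors with a uniform prior, a credible difference of 0.2 as in the study, at 95%, and depth capped at 200. Mean depth was 14.7 to 37.6 reads per CpG in the DMRs. Stretch finding and calls were tested on simulated data. Gene models came from GENCODE vM1 on NCBIM37 (mm9). Python 3.11.15, NumPy 2.4.6, SciPy 1.17.1 and numba 0.67.0 were used. Alternatives were other read minimums, WT limits, window sizes, region definitions, single strands, thinned reads, read shares, a nearer flank, longer stretches and Fisher's exact test.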

Additional observations from a re-analysis of the deposited data

Results flagged for a closer look

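The *Nnat* DMR moved in opposite directions in the knockouts on both strands, with -27.4 percentage points from WT in *Dnmt3a* KO against 42.1 in *Dnmt3b* KO. This was picked out because every strand of one knockout was below WT and every strand of the other above it. The difference was not tested, since each genotype is 1 pooled table. Strand-wise changes were -18.4 and -26.9 points in *Dnmt3a* KO, against 46.2 and 42.1 points in *Dnmt3b* KO.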

How the results depend on the processing

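No paired analysis was possible because the tables hold the 3 replicates already merged, which also left no replicate to leave out. At *Nnat* all 10 alternatives gave a value below 0 for *Dnmt3a* KO minus WT and for *Dnmt3a* KO minus *Dnmt3b* KO, and above 0 for *Dnmt3b* KO minus WT; limits of 20 to 80% in *Dnmt3b* KO found no stretch there. *Dnmt3a* KO minus WT at *Nnat* was -17.5 points with at least 10 reads and -6.96 on the plus strand alone, where few CpGs had enough reads. *Dnmt3b* KO minus WT at *Nnat* was 26.5 with CpG density alone and 58.2 on the plus strand, and *Dnmt3a* KO minus *Dnmt3b* KO was -63.0, -57.0 and -65.2 with at least 10 reads, density alone and the plus strand. The median of the 6 DMRs for *Dnmt3a* KO minus WT was -9.90 on the minus strand. For *Dnmt3b* KO minus WT it was 0.795 with at least 10 reads, -6.27 with density alone and -9.23 with regions set in *Dnmt3b* KO (5 loci, without *Nnat*). For *Dnmt3a* KO minus *Dnmt3b* KO it was 3.29 with density alone, -4.34 on the plus and -4.47 on the minus strand. At *Mcts2* the direction of *Dnmt3a* KO minus WT turned to 0.204 for the inner CpGs and 1.98 on the plus strand, where windows of 5 CpGs gave -10.4 and the minus strand -8.96, and that of *Dnmt3a* KO minus *Dnmt3b* KO to -1.01 on the minus strand. At *Zrsr1* *Dnmt3a* KO minus WT ran from -14.3 to -1.15. The alternatives spanned 0 elsewhere too. *Dnmt3a* KO minus WT ran from -15.4 to 38.8 at *Plagl1* and from -6.28 to 2.40 at *Grb10*. *Dnmt3b* KO minus WT ran from -6.42 to 9.26 at *Zrsr1*, -9.23 to 2.31 at *Grb10* and -6.12 to 10.5 at *Plagl1*. *Dnmt3a* KO minus *Dnmt3b* KO ran from -6.70 to 4.29 at *Grb10*, -12.3 to 28.3 at *Plagl1* and -10.5 to 17.98 at *Impact*. *Impact* stayed below WT in every alternative, nearest to it at -2.37 in *Dnmt3a* KO and -0.299 in *Dnmt3b* KO. The cause of these shifts was not tested. Flanks of 2 kb gave medians of -24.3 and -9.90 points for *Dnmt3a* KO and *Dnmt3b* KO. Fisher's exact test called 59 CpGs lower (14.1%) and 10 higher (2.39%) in *Dnmt3a* KO, against 48.9% and 0.0767% of all CpGs. At least 10 reads left 9 of 330 called lower in *Dnmt3b* KO (2.73%), against 2.34% of all CpGs. All CpGs had a higher mean WT level than the DMRs, so these shares are not like for like. Stretches of at least 40 CpGs numbered 667 and those of 30 to 70% 1395, with medians for *Dnmt3a* KO of -21.6 and -22.8 points; the longer ones had -20.5 for *Dnmt3b* KO. What depth can show depends on how many molecules lie behind the reads of a DMR, which the tables do not give; the read-share interval takes many and the wide interval few.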
